A study of Mus musculus with 12 samples.

Results

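The libraries described here were made 4 weeks after bleomycin and are set against saline, over all 13667 genes of the deposited table for that comparison. They are 6 of the 12 libraries of the series: 3 at 4 weeks of bleomycin and 3 of saline. All came from C57BL/6 mice 8 to 10 weeks old. The 4-week mice had received bleomycin at 1.5 U/kg by intratracheal instillation 4 weeks earlier, the 2-week mice (3 libraries, used for comparison) the same dose 2 weeks earlier, and the saline mice saline by the same route. After lung digestion and red cell lysis, cells carrying CD16/32, CD45, CD31, CD90, Ter119 or PDGFRα were removed with beads, and cells carrying EpCAM were then captured, so the RNA is that of an enriched lung epithelial fraction and not of a single cell type. The labels do not say how long after instillation the saline lungs were taken, nor whether libraries of 1 group came from separate mice. The p-values below therefore measure the spread between these libraries, which may be technical.

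Bleomycin breaks DNA and, given into the airways, injures the alveolar epithelium. In mice the injury passes through inflammation and a peak of matrix deposition and then partly resolves. Alveolar type 2 (AT2) cells, which make surfactant, are the progenitors that replace the flat alveolar type 1 (AT1) cells of gas exchange. After injury they pass through a keratin-rich transitional state, while macrophages and fibroblasts near them secrete matrix, matrix-binding proteins and proteases.

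Library 2 of the 4-week group stood apart and is shown apart. It listed 6197 of the 13667 genes (45.3%) at 0, whereas the other 5 libraries of the table listed 21 to 43 genes at 0. Among the 10% of genes with the highest level in the other 4-week libraries it still listed 11.9% at 0, and Epcam was at 0 as well. Its median FPKM over the 13518 genes shared by all tables was 0.463, against 5.25 and 5.73 in the remaining 4-week pair and 5.96 to 6.21 in saline. The remaining pair, library 1 and a library whose column number matches no sample title (called the unnumbered library), correlated at 0.976 on the log2(FPKM + 1) scale across those genes, and the saline libraries at 0.978 to 0.987. FPKM (fragments counted per length of transcript and per size of library) carries no read depth, so no counting interval is given. All fits below compare the remaining 4-week pair with the 3 saline libraries.

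The epithelial label held in the fitted libraries. Epcam, the capture antigen, had 25.9 and 32.5 FPKM at 4 weeks, against 39.0, 46.2 and 38.8 FPKM in saline, and Sftpc, the AT2-specific surfactant protein C, had 12988 and 8895 FPKM at 4 weeks, against 10854, 14144 and 11008 FPKM in saline. None of the 20 AT2 and 18 AT1 markers was at 0 in any of the 5 libraries. Markers of depleted or unlabelled cells were present as well. The summed level of 26 fibroblast and smooth muscle markers was 11055 and 8217 FPKM at 4 weeks, against 5519.9, 6635 and 6893 FPKM in saline. The summed level of 24 macrophage and monocyte markers was 1119 and 1314 FPKM at 4 weeks, against 968, 812 and 989 FPKM in saline. Sums over 12 pan-leukocyte markers were 496 and 459 FPKM at 4 weeks, against 731, 402 and 531 FPKM in saline. In a bulk library of this kind, more cells of a type and more RNA per cell cannot be told apart.

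At 4 weeks 206 of 12606 genes tested (1.63%) passed an adjusted p of 0.05 against saline, 125 higher (0.992%) and 81 lower (0.643%). At 2 weeks, against the same saline libraries, 3872 of 13014 genes (29.8%) passed, 2352 higher (18.1%) and 1520 lower (11.7%). The 2-week split was 3711 higher and 934 lower with equal totals, 2055 and 2019 with median-ratio scaling, and 1994 and 2042 with quantile normalization. Both sets of calls rest on the same 3 saline libraries and so share their error. Of the calls at 4 weeks, 85 of the 125 higher genes and 39 of the 81 lower genes changed over 2-fold on the log2(FPKM + 1) scale. The median log2 fold change over all genes tested was -0.10. The 4-week pair lay wholly above saline in 1542 genes (12.2%) and wholly below it in 3731 genes (29.6%). Median-ratio scaling moved the median of all genes to 0.00 and the split of calls to 168 higher and 60 lower, quantile normalization gave 153 higher and 64 lower, and scaling to equal totals gave 86 higher and 75 lower with a median of -0.17. In the authors' deposited table, whose 4-week mean includes library 2, 1 gene had a q-value under 0.05, the complement gene C1qb (log2 fold change 1.95, q = 0.000679).

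Of the calls, 32 of the 125 higher and 23 of the 81 lower genes passed the filter of 1 FPKM only through the group where they were high, so that a difference was needed for them to be tested at all. Among the other 11711 genes tested 93 were higher (0.794%). All 13 mitochondrially encoded genes tested had positive log2 fold changes (median 0.41) with no call, and their summed level was 29759 and 22694 FPKM at 4 weeks, against 19298, 20111 and 20599 FPKM in saline, highest in library 1. The median was 0.05 without library 1 and 0.01 with quantile normalization. Their part in the other results was not tested.

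The number of calls depended on single libraries. Without 4-week library 1 it was 3 (Spp1, C1qb and the mitochondrial gene mt-Atp6), without the unnumbered library 827, and without saline library 1, 2 or 3 it was 88, 93 or 76. In the fits with 1 library left at 4 weeks, that library was assumed to vary like the others. Spp1 and C1qb were the 2 of the 206 genes called in all 5 of these fits. Of the 206, 55 kept their call whichever saline library was left out, 112 lost it in all 3 such fits, and none of those still tested changed sign when any 1 library was left out (178 were tested without either 4-week library, and 205 or 206 without a saline library). With library 2 added to the fit, 0 genes passed by limma, 329 had an unadjusted p under 0.05, and 181 of the 206 kept their sign.

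**Figure D1:**
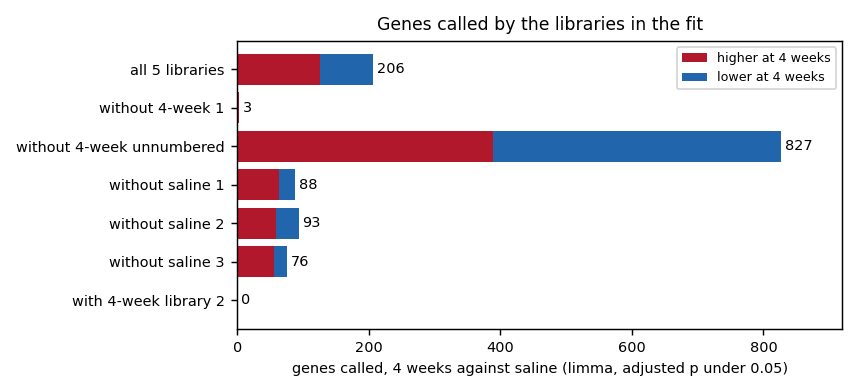
Number of genes called at 4 weeks of bleomycin against saline (x axis; limma, adjusted p under 0.05), by the libraries in the fit (rows), with genes higher at 4 weeks in red and genes lower in blue. The count was 206 with the 5 libraries, 827 without the unnumbered 4-week library, 3 without 4-week library 1 and 0 with library 2 added.

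Several genes of the extracellular matrix and of secreted proteins were among the largest increases at 4 weeks. The genes named for the largest changes were chosen among those whose groups did not overlap, so their lack of overlap is a description. Spp1, which encodes osteopontin, a secreted matrix and cytokine-like protein made by injured epithelium and by fibrosis-associated macrophages, lies at chr5:104435118-104441050 (mm10). It had 237 and 316 FPKM at 4 weeks, against 42.0, 38.9 and 37.9 FPKM in saline. Both fitted 4-week values lay far above all 3 saline values (log2 fold change 2.76 ± 0.16 (SE), limma adjusted p = 0.00298). Ltbp2, a latent TGF-beta binding protein of elastic microfibrils, had 59.6 and 67.8 FPKM at 4 weeks, against 9.95, 12.5 and 13.3 FPKM in saline, and the groups were far apart (2.33 ± 0.15 (SE), limma adjusted p = 0.00368). Tnc, encoding the matricellular protein tenascin C, had 28.1 and 36.1 FPKM at 4 weeks, against 4.61, 5.14 and 7.54 FPKM in saline (2.30 ± 0.21 (SE), limma adjusted p = 0.00781). Eln, encoding elastin, had 454 and 319 FPKM at 4 weeks, against 85.5, 77.1 and 124 FPKM in saline (2.01 ± 0.25 (SE), limma adjusted p = 0.0186). In all 4 genes the lower 4-week value exceeded the highest saline value.

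Col28a1, a minor beaded-filament collagen gene at chr6:7997808-8192617 (mm10), had 23.1 and 15.0 FPKM at 4 weeks, against 1.48, 1.95 and 2.93 FPKM in saline (log2 fold change 2.68 ± 0.25 (SE), limma adjusted p = 0.00803). Fmod, whose product fibromodulin binds fibrillar collagen, had 42.4 and 31.5 FPKM at 4 weeks, against 8.85, 10.1 and 8.32 FPKM in saline (1.90 ± 0.16 (SE), limma adjusted p = 0.00614). Mdk, encoding the heparin-binding growth factor midkine, had 60.0 and 47.8 FPKM at 4 weeks, against 13.4, 14.2 and 11.8 FPKM in saline (1.95 ± 0.15 (SE), limma adjusted p = 0.00547). The groups did not overlap in any of these genes. Rgs16, a GTPase-activating regulator of G-protein signalling and no matrix gene, had nearly equal 4-week values of 41.3 and 42.0 FPKM, against 9.42, 8.76 and 7.75 FPKM in saline (2.15 ± 0.12 (SE), limma adjusted p = 0.00298).

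The pathway list of TGF-beta response and fibrotic matrix genes had 27 members tested, of which 7 were higher and none lower (25.9% called, against 1.63% of all genes), with a median log2 fold change of 0.67 against -0.10 over all genes. Beside Spp1, Tnc and Ltbp2, those higher were Itgav, Col3a1, Timp1 and Fn1. Itgav, the alpha V integrin subunit that takes part in activating latent TGF-beta, had 5.40 and 7.51 FPKM at 4 weeks, against 1.34, 1.23 and 1.49 FPKM in saline (1.65 ± 0.16 (SE), limma adjusted p = 0.00897). Col3a1, a chain of fibrillar collagen, had 414 and 393 FPKM at 4 weeks, against 132, 151 and 207 FPKM in saline (1.33 ± 0.20 (SE), limma adjusted p = 0.0355). Timp1, an inhibitor of metalloproteinases, had 129 and 102 FPKM at 4 weeks, against 41.0, 46.2 and 55.6 FPKM in saline (1.26 ± 0.18 (SE), limma adjusted p = 0.0272). Fn1, encoding fibronectin and named here after its values were seen, had 134 and 171 FPKM at 4 weeks, against 61.5, 59.7 and 74.0 FPKM in saline (1.21 ± 0.16 (SE), limma adjusted p = 0.0241). The groups did not overlap in these 4 genes. Col1a1, the major collagen gene of the list, had 344 and 252 FPKM at 4 weeks, against 119.6, 144 and 181 FPKM in saline and did not pass (log2 fold change 1.01 ± 0.22 (SE), limma adjusted p = 0.0786). Without saline library 1, Eln had an adjusted p of 0.0539. Timp1 had 0.075, 0.0786 and 0.0521 without saline library 1, 2 or 3, Fn1 0.0813, 0.0752 and 0.0581, and Col3a1 0.0821 and 0.102 without library 1 or 2 and 0.0568 without the unnumbered 4-week library. Quantile normalization also ended the calls of Col3a1 and Fn1.

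Markers of fibroblasts and smooth muscle moved with this group: 4 of 26 passed as higher (Col3a1, Lum, Cthrc1 and Eln), none lower, 15.4% against 0.992% of all genes, and the list median was 0.45. The summed levels given above did not overlap between the groups, and no marker was at 0 in the 5 fitted libraries. The sums include Col3a1 and Eln, so they are not a measure apart from the matrix genes. The part of fibroblast content in the matrix result was not tested. Lum, encoding lumican, a small proteoglycan of fibroblasts, had 42.2 and 41.1 FPKM at 4 weeks, against 19.5, 21.2 and 17.9 FPKM in saline (1.06 ± 0.12 (SE), limma adjusted p = 0.0154). Cthrc1, a secreted protein of activated, collagen-producing fibroblasts, had 8.99 and 7.11 FPKM at 4 weeks, against 3.76, 2.82 and 3.39 FPKM in saline (1.06 ± 0.16 (SE), limma adjusted p = 0.0325). Both genes were above every saline library. Lum had an adjusted p of 0.0535 and 0.076 without saline library 1 or 3, and Cthrc1 0.0705, 0.0798 and 0.119 without saline library 1, 2 or 3.

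**Figure D2:**
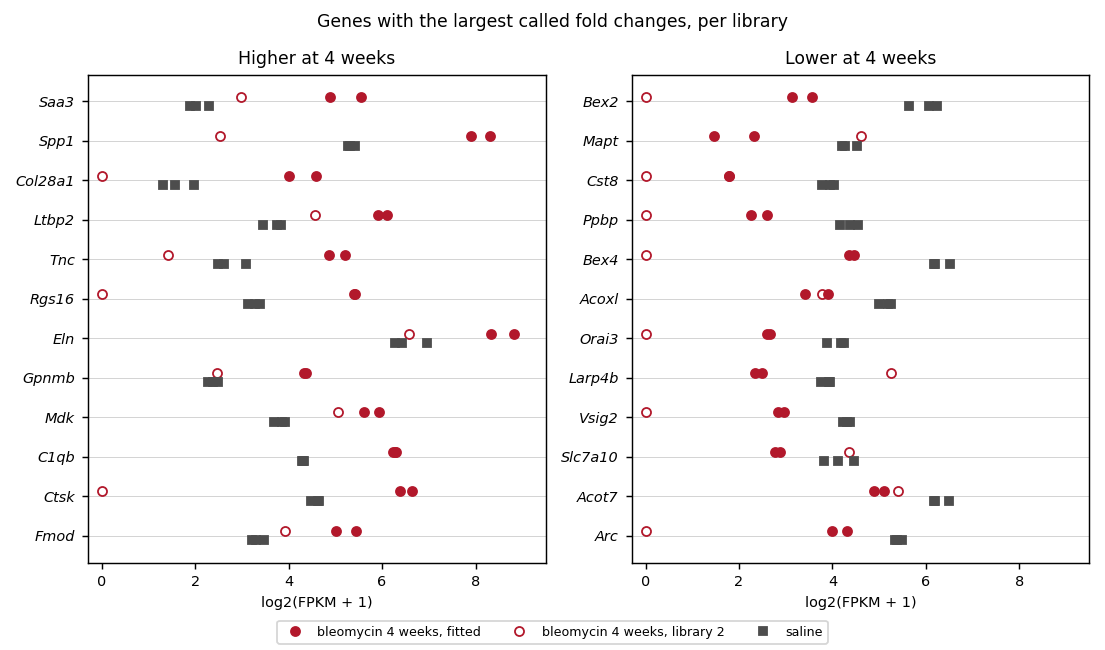
Level of each gene on the log2(FPKM + 1) scale (x axis) in each library, for the 12 genes with the largest called increases (left) and decreases (right) among non-overlapping genes whose higher group averaged at least 10 FPKM. Filled red circles are the 4-week pair, open red circles 4-week library 2 and grey squares saline. Genes were drawn from those whose filled circles and squares do not overlap, and library 2 lists 10 of the 24 at 0.

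Macrophage-associated genes formed the second group. Of 24 macrophage and monocyte markers tested, 9 were higher and 1 lower (41.7%, against 1.63% of all genes), with a median of 0.61. Of the 9, Mmp12, Trem2 and Ms4a7 passed the filter only through the 4-week pair, and 6 of the other 21 markers were higher (28.6%, against 0.794% of all genes counted in this way). The 3 genes of complement C1q, the recognition protein of the classical pathway, which in lung is made mainly by macrophages, were all higher. C1qb had 76.2 and 74.0 FPKM at 4 weeks, against 18.9, 19.0 and 18.7 FPKM in saline, with little spread between the libraries of either group (1.94 ± 0.11 (SE), limma adjusted p = 0.00298). C1qc had 31.0 and 30.4 FPKM at 4 weeks, against 7.78, 7.37 and 8.28 FPKM in saline (1.85 ± 0.11 (SE), limma adjusted p = 0.00298). C1qa had 86.0 and 75.3 FPKM at 4 weeks, against 24.6, 19.9 and 20.9 FPKM in saline (1.84 ± 0.14 (SE), limma adjusted p = 0.00547). No 4-week value of the 3 genes overlapped saline, and they were the members called among 18 complement genes tested (3 of 18, against 0.992% of all genes), none of which was lower.

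The 3 genes lie side by side on the minus strand of chromosome 4, with C1qb at chr4:136880129-136886187, C1qc at chr4:136889804-136893065 and C1qa at chr4:136895917-136898803 (mm10), separated by 3616 bases between C1qb and C1qc and 2851 bases between C1qc and C1qa. Because they changed together, their RefSeq promoter windows (GRCm38.p6, 250 bases before to 50 after the annotated start) are shown where the table has them, with capitals marking matches to the core GAGGAA, which the myeloid factor PU.1 binds, on either strand.
C1qb (chr4:136886151-136886450, minus strand): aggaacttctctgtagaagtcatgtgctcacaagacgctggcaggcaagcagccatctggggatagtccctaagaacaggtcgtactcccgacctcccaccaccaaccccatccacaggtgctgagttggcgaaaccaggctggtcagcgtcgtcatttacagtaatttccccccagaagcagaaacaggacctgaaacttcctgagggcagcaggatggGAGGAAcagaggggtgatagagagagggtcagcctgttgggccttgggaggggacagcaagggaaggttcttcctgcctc
C1qc (chr4:136892865-136893164, minus strand): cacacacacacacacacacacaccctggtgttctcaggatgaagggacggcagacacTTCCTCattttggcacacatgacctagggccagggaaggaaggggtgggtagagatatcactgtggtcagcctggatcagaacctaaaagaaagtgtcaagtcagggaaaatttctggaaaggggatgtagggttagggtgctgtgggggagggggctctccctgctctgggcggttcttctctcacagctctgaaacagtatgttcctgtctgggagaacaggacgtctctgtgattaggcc
Each window holds 1 match, at base -30 of C1qb and, on the opposite strand, at base -193 of C1qc. These positions count from the RefSeq starts. That of C1qc lies 151 bases inside the gene coordinates given above, and that of C1qb 13 bases from its deposited start. The same core occurs in 28.3% of all 32851 windows of the table, and neither window holds TATAAA, which is present in 8.32%.

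Gpnmb, a transmembrane glycoprotein of lipid-laden and fibrosis-associated macrophages, had 19.0 and 19.7 FPKM at 4 weeks, against 3.85, 4.24 and 4.63 FPKM in saline (1.96 ± 0.12 (SE), limma adjusted p = 0.00298). Ctsk, encoding cathepsin K, a collagen-degrading protease, had 98.3 and 81.9 FPKM at 4 weeks, against 21.3, 23.7 and 24.2 FPKM in saline (1.92 ± 0.13 (SE), limma adjusted p = 0.00442). Mmp12, the macrophage elastase, had 5.41 and 9.14 FPKM at 4 weeks, against 0.609, 0.487 and 0.798 FPKM in saline (2.31 ± 0.21 (SE), limma adjusted p = 0.00781). The groups were separate in all 3. Trem2, a lipid-sensing receptor of macrophages, had 2.86 and 3.07 FPKM at 4 weeks, against 0.596, 0.346 and 0.474 FPKM in saline (1.43 ± 0.13 (SE), limma adjusted p = 0.00739), and Ms4a7, a tetraspan membrane protein of macrophages, had 2.76 and 1.93 FPKM at 4 weeks, against 0.584, 0.381 and 0.319 FPKM in saline (1.22 ± 0.16 (SE), limma adjusted p = 0.0234). Both were named after their values were seen, and the adjusted p of Ms4a7 was 0.0575 and 0.0794 without saline library 2 or 3. Lyz1, a lysozyme gene that AT2 cells also express, was the member that was lower, with 155 and 217 FPKM at 4 weeks, against 356, 399 and 410.3 FPKM in saline (-1.07 ± 0.18 (SE), limma adjusted p = 0.0434). It was also named after its values were seen, is nearly identical to Lyz2 so that reads may be split between them, and had an adjusted p of 0.0906 to 0.154 without any 1 saline library.

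The other leukocyte markers are given beside these genes. Ptprc, which encodes CD45, had 4.03 and 5.92 FPKM at 4 weeks, against 6.82, 4.90 and 7.24 FPKM in saline (log2 fold change -0.30 ± 0.21 (SE), limma adjusted p = 0.43), and Cd68, a lysosomal macrophage marker, had 45.4 and 48.3 FPKM at 4 weeks, against 36.9, 20.3 and 31.1 FPKM in saline (0.69 ± 0.24 (SE), limma adjusted p = 0.179). None of 12 pan-leukocyte markers, 13 T and NK cell markers or 9 B and plasma cell markers passed in either direction, with medians of -0.26, -0.19 and -0.72. Spp1, Ctsk and Mmp12 are also expressed outside macrophages. The summed macrophage level was above saline in both fitted libraries with no marker at 0. Spp1 and the C1q genes are members of that sum, so it is not a measure apart from their results. Spp1 alone had 237 and 316 FPKM at 4 weeks, against 42.0, 38.9 and 37.9 FPKM in saline. With Spp1 taken out, the sum overlapped between the groups, so its separation does not describe the other markers as a set. The part of macrophage content in the C1q and Spp1 results was not tested.

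Acute phase proteins and chemokines were the third group. Saa3, a serum amyloid A made locally in inflamed tissue and located at chr7:46711998-46715700 (mm10), had the largest log2 fold change of the genes named, with 45.5 and 28.7 FPKM at 4 weeks, against 2.71, 3.90 and 3.04 FPKM in saline (3.15 ± 0.22 (SE), limma adjusted p = 0.00442). Saa3 belongs to a family of similar genes, and the division of reads among them was not stated. Of 20 acute phase and antimicrobial genes tested, 4 were higher and none lower (median 0.32), of which Orm1 passed the filter only through the 4-week pair. Of the other 19, 3 were higher (15.8%, against 0.794% of all genes counted in this way). Beside Saa3 they were Retnla, a secreted resistin-like protein of type 2 responses, with 306 and 187 FPKM at 4 weeks, against 103, 82.6 and 76.7 FPKM in saline (1.45 ± 0.24 (SE), limma adjusted p = 0.0425), the cytokine gene Il6, with 97.3 and 113 FPKM at 4 weeks, against 50.5, 60.9 and 52.9 FPKM in saline (0.93 ± 0.14 (SE), limma adjusted p = 0.0336), and Orm1, one of several near-identical orosomucoid genes, with 2.24 and 2.09 FPKM at 4 weeks, against 0.648, 0.624 and 0.93 FPKM in saline (0.87 ± 0.13 (SE), limma adjusted p = 0.0348). All 4 genes lay above saline in both fitted libraries. Lcn2, the antimicrobial siderophore-binding lipocalin, had 131 and 120.4 FPKM at 4 weeks, against 52.9, 84.4 and 79.2 FPKM in saline and did not pass (0.82 ± 0.21 (SE), limma adjusted p = 0.111).

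Of 23 chemokines and NF-kB targets tested, 4 were higher and none lower (median 0.45), of which Cxcl9 passed the filter only through the 4-week pair. Of the other 21, 3 were higher (14.3%, against 0.794% of all genes counted in this way). Cxcl1, a neutrophil attractant, had 178 and 189.6 FPKM at 4 weeks, against 89.4, 74.2 and 78.2 FPKM in saline (1.18 ± 0.13 (SE), limma adjusted p = 0.0148). Ccl2, the main monocyte attractant, had 62.5 and 58.4 FPKM at 4 weeks, against 28.5, 21.4 and 29.5 FPKM in saline (1.17 ± 0.16 (SE), limma adjusted p = 0.0275), and Ccl7, a related monocyte attractant, had 48.5 and 53.6 FPKM at 4 weeks, against 27.8, 26.0 and 25.1 FPKM in saline (0.93 ± 0.12 (SE), limma adjusted p = 0.0205). The fitted 4-week libraries were above saline in each. Cxcl9, an interferon-gamma-induced lymphocyte attractant, had 2.06 and 1.76 FPKM at 4 weeks, against 0.517, 0.183 and 0.285 FPKM in saline (1.14 ± 0.15 (SE), limma adjusted p = 0.0234). These calls were fragile: without saline library 3 the adjusted p was 0.075 for Cxcl1, 0.0715 for Ccl2, 0.11 for Ccl7, 0.0804 for Cxcl9, 0.139 for Il6, 0.136 for Retnla and 0.0715 for Orm1. All 7 also missed the threshold without saline library 2 (adjusted p 0.0517 to 0.111), and Ccl2, Ccl7, Il6, Retnla and Orm1 without saline library 1 (0.0583 to 0.0946). Il6 and Ccl7 also missed the threshold with libraries scaled to equal totals, and Il6 with quantile normalization. None of 22 interferon-stimulated genes (median -0.17) or 20 antigen presentation genes (median -0.10) passed.

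Among 20 p53 targets, 2 were higher and none lower (median 0.17). Of these, Eda2r passed the filter only through the 4-week pair, and 1 of the other 19 was higher (5.26%, against 0.794% of all genes counted in this way). Phlda3, a p53-induced inhibitor of AKT signalling, had 70.9 and 65.1 FPKM at 4 weeks, against 28.5, 31.4 and 27.9 FPKM in saline (1.19 ± 0.12 (SE), limma adjusted p = 0.0108). Eda2r, a TNF-receptor family member induced by p53, had 2.79 and 2.87 FPKM at 4 weeks, against 0.728, 0.671 and 0.668 FPKM in saline (1.18 ± 0.11 (SE), limma adjusted p = 0.00897). The groups were apart in both, although Phlda3 had an adjusted p of 0.0536 without saline library 3. Bax, the pro-apoptotic mitochondrial protein, had 38.0 and 33.7 FPKM at 4 weeks, against 20.1, 22.1 and 22.9 FPKM in saline (0.70 ± 0.12 (SE), limma adjusted p = 0.0522), and Zmat3, an RNA-binding p53 target, had 3.15 and 3.01 FPKM at 4 weeks, against 1.28, 1.72 and 1.47 FPKM in saline (0.72 ± 0.13 (SE), limma adjusted p = 0.0554). Neither passed, and both passed with median-ratio scaling. Cdkn1a, the cell cycle inhibitor p21, had 193 and 193 FPKM at 4 weeks, against 174, 118 and 122 FPKM in saline (0.50 ± 0.19 (SE), limma adjusted p = 0.207), with saline library 1 close to the 4-week pair. In the list of senescence and secretome genes, 5 of 16 were higher (Il6, Mmp12, Timp1, Ccl2 and Cxcl1, all described above) and 1 was lower. Without the 2 members that passed the filter only through the group where they were high, 4 of 14 were higher (28.6%, against 0.794% of all genes counted in this way). The lower member (1 of 16, against 0.643% of all genes) was Igfbp3, a binding protein for insulin-like growth factors, with 40.2 and 49.0 FPKM at 4 weeks, against 105, 102 and 106 FPKM in saline (-1.21 ± 0.13 (SE), limma adjusted p = 0.0129).

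Keratins of basal cells, which are progenitors of the conducting airway and appear in the alveoli as dysplastic patches after severe injury, were low but higher at 4 weeks. Krt5 had 6.45 and 3.35 FPKM at 4 weeks, against 0.165, 0.372 and 0.16 FPKM in saline (2.21 ± 0.24 (SE), limma adjusted p = 0.0128), and Krt17 had 1.74 and 1.60 FPKM at 4 weeks, against 0.259, 0.301 and 0.17 FPKM in saline (1.10 ± 0.12 (SE), limma adjusted p = 0.0129). No 4-week value of either keratin overlapped saline. Aqp3, a basal cell aquaporin, had 3.59 and 3.12 FPKM at 4 weeks, against 1.13, 1.23 and 0.463 FPKM in saline and missed the threshold (1.19 ± 0.21 (SE), limma adjusted p = 0.0504). Krt5 and Krt17 passed the filter only through the 4-week pair, so a difference was needed for them to be tested, and no share of the list is given for them. None of the 4 basal and dysplastic cell markers that passed it otherwise was called, of 10 on the list. Of 22 markers of the transitional alveolar state, none passed (median 0.05). Krt8, its best known keratin, had 137 and 142 FPKM at 4 weeks, against 203, 224 and 189.5 FPKM in saline, lower than saline in both libraries without passing (-0.55 ± 0.13 (SE), limma adjusted p = 0.0902). Cst3, encoding the protease inhibitor cystatin C, had 1172 and 990.5 FPKM at 4 weeks, against 615, 618 and 607 FPKM in saline (0.81 ± 0.15 (SE), limma adjusted p = 0.0533), and Lgals3, encoding galectin 3, had 131 and 102 FPKM at 4 weeks, against 84.9, 77.6 and 82.9 FPKM in saline (0.50 ± 0.15 (SE), limma adjusted p = 0.137). Krt19 had 68.8 and 59.7 FPKM at 4 weeks, against 70.5, 80.3 and 83.4 FPKM in saline (-0.28 ± 0.14 (SE), limma adjusted p = 0.287) and the tight junction gene Cldn4 had 21.5 and 13.9 FPKM at 4 weeks, against 36.6, 19.7 and 16.6 FPKM in saline (-0.39 ± 0.34 (SE), limma adjusted p = 0.529).

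**Figure D3:**
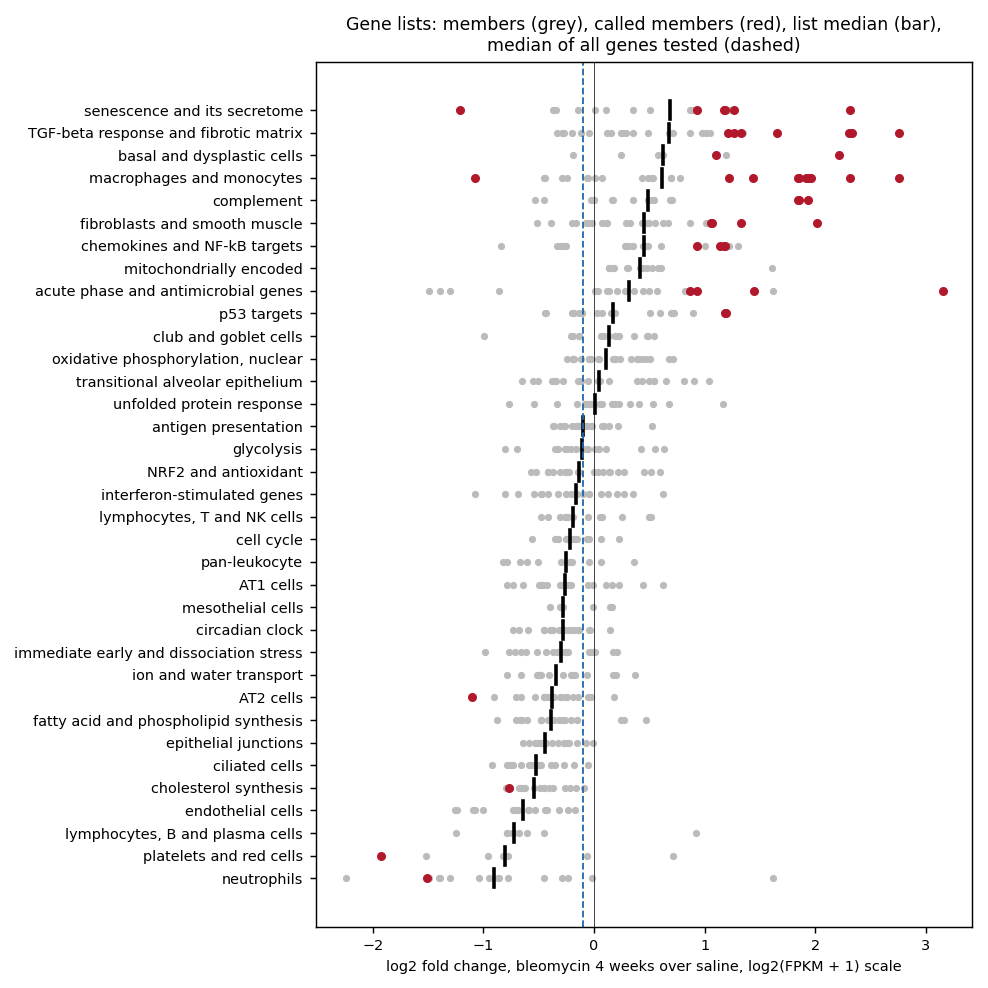
Log2 fold change at 4 weeks over saline on the log2(FPKM + 1) scale (x axis) for the members of each gene list (rows). Grey dots are members that did not pass, red dots members that passed, black bars list medians, and the dashed line the median of all genes tested, -0.10. Red dots gather in the matrix, macrophage and secretome lists, whose medians are 0.61 to 0.69. These lists share the red members Spp1, Timp1 and Mmp12, which are drawn more than once. The basal and dysplastic cell list has a median of 0.62, and its red dots, Krt5 and Krt17, passed the filter only through the 4-week pair. Neutrophil markers have the lowest median, -0.91.

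Among the genes lower at 4 weeks were a pair of X-linked neighbours. Bex2 and Bex4 encode small brain-expressed X-linked adaptor proteins of little-known function in lung. Bex2 had 10.7 and 7.72 FPKM at 4 weeks, against 66.5, 74.1 and 48.7 FPKM in saline (-2.64 ± 0.22 (SE), limma adjusted p = 0.00614). Bex4 had 21.2 and 19.4 FPKM at 4 weeks, against 71.2, 90.9 and 72.2 FPKM in saline (-1.89 ± 0.15 (SE), limma adjusted p = 0.00614). Every fitted 4-week value lay below every saline value. Bex2 lies at chrX:136066564-136068236 on the minus strand and Bex4 at chrX:136138996-136140443 on the plus strand (mm10), 70.8 kb apart. Because these neighbours were lower together, their RefSeq promoter windows (GRCm38.p6) are shown with the same marking.
Bex2 (chrX:136068187-136068486, minus strand): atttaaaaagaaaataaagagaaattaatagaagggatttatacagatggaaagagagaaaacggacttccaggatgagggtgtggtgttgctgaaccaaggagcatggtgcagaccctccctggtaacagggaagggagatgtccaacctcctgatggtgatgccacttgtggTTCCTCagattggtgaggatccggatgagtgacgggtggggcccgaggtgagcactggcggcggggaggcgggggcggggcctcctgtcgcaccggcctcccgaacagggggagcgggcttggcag
Bex4 (chrX:136138746-136139045, plus strand): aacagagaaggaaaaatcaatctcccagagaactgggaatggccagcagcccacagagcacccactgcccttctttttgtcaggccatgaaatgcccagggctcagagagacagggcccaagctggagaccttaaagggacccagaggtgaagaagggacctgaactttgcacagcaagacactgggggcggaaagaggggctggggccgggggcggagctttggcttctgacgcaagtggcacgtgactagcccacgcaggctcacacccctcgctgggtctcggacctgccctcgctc
The Bex2 window holds 1 match to GAGGAA, on the opposite strand at base -76, and the Bex4 window holds no match to either motif searched.

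Cst8, a cystatin-related protein best known from testis, had 2.47 and 2.45 FPKM at 4 weeks, against 12.6, 15.3 and 14.4 FPKM in saline (-2.12 ± 0.13 (SE), limma adjusted p = 0.00298). Vsig2, an immunoglobulin-domain membrane protein of epithelia, had 6.18 and 6.81 FPKM at 4 weeks, against 19.0, 19.8 and 17.6 FPKM in saline (-1.40 ± 0.12 (SE), limma adjusted p = 0.00614). Acoxl, an acyl-CoA oxidase-like gene, had 9.67 and 13.9 FPKM at 4 weeks, against 31.1, 37.3 and 35.3 FPKM in saline (-1.49 ± 0.17 (SE), limma adjusted p = 0.0162). All 3 were lower in both fitted libraries. Mapt, which encodes the microtubule protein tau, had 1.78 and 4.03 FPKM at 4 weeks, against 22.2, 18.2 and 17.5 FPKM in saline (-2.43 ± 0.26 (SE), limma adjusted p = 0.0128). Orai3, a subunit of store-operated calcium channels, had 5.34 and 5.05 FPKM at 4 weeks, against 13.9, 17.1 and 18.0 FPKM in saline (-1.48 ± 0.14 (SE), limma adjusted p = 0.00968). Acot7, an acyl-CoA thioesterase, had 28.8 and 33.3 FPKM at 4 weeks, against 72.7, 89.4 and 71.7 FPKM in saline (-1.30 ± 0.15 (SE), limma adjusted p = 0.0154). Again no library of either group crossed into the other.

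Larp4b, an RNA-binding translation factor, had 4.59 and 4.11 FPKM at 4 weeks, against 14.4, 14.2 and 12.5 FPKM in saline (-1.46 ± 0.12 (SE), limma adjusted p = 0.00614). Slc7a10, a small neutral amino acid transporter, had 5.82 and 6.39 FPKM at 4 weeks, against 16.3, 21.2 and 13.0 FPKM in saline (-1.30 ± 0.20 (SE), limma adjusted p = 0.0352), and Arc, an immediate early gene first described in neurons, had 18.9 and 14.9 FPKM at 4 weeks, against 44.2, 40.4 and 39.3 FPKM in saline (-1.25 ± 0.14 (SE), limma adjusted p = 0.0148). The groups were separate in these genes too. Slc7a10 lost its call without saline library 1 or 2 (adjusted p 0.0906 and 0.058) and without the unnumbered 4-week library (0.0569). Without saline library 3 the adjusted p was 0.0651 for Acoxl, 0.0502 for Acot7, 0.0549 for Arc and 0.0619 for Igfbp3, and without saline library 2 it was 0.0517 for Acoxl and 0.0509 for Arc.

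AT2 markers as a list stood slightly below saline at 4 weeks. Of 20 tested, 19 had a negative log2 fold change (median -0.38), as had 64.8% of all genes, yet 1 passed (1 of 20, against 0.643% of all genes in that direction). It was Etv5, a transcription factor that maintains AT2 identity, with 22.8 and 27.1 FPKM at 4 weeks, against 48.9, 60.7 and 55.0 FPKM in saline (-1.11 ± 0.14 (SE), limma adjusted p = 0.0234), and its adjusted p was 0.0676 and 0.0947 without saline library 2 or 3. Abca3, the lipid transporter of lamellar bodies, had 27.5 and 42.0 FPKM at 4 weeks, against 58.9, 70.7 and 65.1 FPKM in saline (-0.91 ± 0.19 (SE), limma adjusted p = 0.0785), and Slc34a2, an apical phosphate transporter, had 202 and 248 FPKM at 4 weeks, against 305, 384 and 379.6 FPKM in saline (-0.66 ± 0.17 (SE), limma adjusted p = 0.106). Sftpb, encoding surfactant protein B, had 1221 and 1138 FPKM at 4 weeks, against 1434, 1800.1 and 1569 FPKM in saline (-0.44 ± 0.17 (SE), limma adjusted p = 0.206), and for Sftpc the log2 fold change was -0.15 ± 0.26 (SE), limma adjusted p = 0.758. These 4 did not pass, which does not show that they were at saline level, and Sftpc overlapped saline. None of 18 AT1 markers passed (median -0.27). Ager, encoding the membrane receptor RAGE of AT1 cells, had 275 and 193 FPKM at 4 weeks, against 144, 242 and 280.2 FPKM in saline (0.11 ± 0.31 (SE), limma adjusted p = 0.854), and Hopx, an AT1 transcriptional cofactor, had 109 and 98.1 FPKM at 4 weeks, against 128, 175 and 228 FPKM in saline (-0.73 ± 0.24 (SE), limma adjusted p = 0.162).

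The lists of ciliated cells and of club and goblet cells held no call. All 16 ciliated cell markers had negative log2 fold changes (median -0.53), as had 64.8% of all genes. Of these markers, 12 lay wholly below saline, against 29.6% of all genes, but none passed. Tekt1 and Tekt4, tektins of the ciliary axoneme, had 9.55 and 8.88 FPKM at 4 weeks, against 15.2, 16.1 and 14.1 FPKM in saline for Tekt1 (-0.66 ± 0.12 (SE), limma adjusted p = 0.0544) and 6.62 and 5.59 FPKM at 4 weeks, against 10.3, 12.6 and 10.8 FPKM in saline for Tekt4 (-0.78 ± 0.14 (SE), limma adjusted p = 0.0541). Foxj1, the master regulator of motile cilia, overlapped saline with 64.1 and 48.9 FPKM at 4 weeks, against 51.4, 66.3 and 57.3 FPKM in saline (-0.05 ± 0.17 (SE), limma adjusted p = 0.877), and its sign turned with median-ratio scaling. The 15 club and goblet cell markers had a median of 0.13. Scgb1a1, the main club cell secretory protein, had 23855 and 13120.3 FPKM at 4 weeks, against 10682, 14835 and 11399 FPKM in saline (0.54 ± 0.32 (SE), limma adjusted p = 0.36).

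Sterol synthesis genes were low as a list. All 19 tested had negative log2 fold changes (median -0.54), as had 64.8% of all genes, and 16 lay wholly below saline, against 29.6% of all genes. Fdft1, the squalene synthase, had 13.0 and 15.5 FPKM at 4 weeks, against 21.6, 24.3 and 23.2 FPKM in saline and did not pass (-0.66 ± 0.13 (SE), limma adjusted p = 0.0642). All 21 epithelial junction genes were also negative (median -0.45), and 18 of 21 fatty acid and phospholipid synthesis genes (median -0.39), with no call in either list.

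Markers of blood and vessel cells mostly had negative log2 fold changes, as had 64.8% of all genes, with few calls. Of 16 neutrophil markers, 1 passed as lower (median -0.91), against 0.643% of all genes in that direction. It was Mmp9, the gelatinase stored in neutrophil granules, with 0.822 and 1.11 FPKM at 4 weeks, against 5.90, 3.04 and 5.24 FPKM in saline (-1.51 ± 0.24 (SE), limma adjusted p = 0.0386). Mmp9 passed the filter only through the saline libraries, where it is high, and none of the 13 neutrophil markers that passed otherwise was called. It lost its call without saline library 1 or 3 (adjusted p 0.0875 and 0.121) and without the unnumbered 4-week library (0.0583). Csf3r, the G-CSF receptor, had 2.84 and 2.60 FPKM at 4 weeks, against 10.4, 5.07 and 12.5 FPKM in saline (-1.40 ± 0.33 (SE), limma adjusted p = 0.09). The summed neutrophil level was 415 and 397 FPKM at 4 weeks, against 1060.4, 489 and 843 FPKM in saline, and saline libraries 1 and 3 were well above saline library 2 in it. Ppbp, a platelet chemokine, had 3.77 and 5.06 FPKM at 4 weeks, against 22.3, 16.8 and 19.6 FPKM in saline (-1.93 ± 0.17 (SE), limma adjusted p = 0.00689). It was the 1 of 9 platelet and red cell markers that passed, against 0.643% of all genes called lower. All 16 endothelial markers were negative (median -0.64), as were 64.8% of all genes, with no call. Ednrb, an endothelin receptor of alveolar capillaries, had 5.73 and 7.74 FPKM at 4 weeks, against 22.6, 13.4 and 17.3 FPKM in saline (-1.26 ± 0.23 (SE), limma adjusted p = 0.0556), and Kdr, the VEGF receptor, had 8.42 and 16.8 FPKM at 4 weeks, against 38.3, 23.2 and 28.9 FPKM in saline (-1.24 ± 0.31 (SE), limma adjusted p = 0.102). Summed endothelial levels were 510.2 and 916 FPKM at 4 weeks, against 1338, 863 and 1054 FPKM in saline. Erythroid, platelet, CD31-positive and CD45-positive cells were to be removed at isolation, and the part of their carry-over in these results was not tested.

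A direct comparison of 4 with 2 weeks called 1155 of 12699 genes (9.1%), 250 higher (1.97%) and 905 lower (7.13%) at 4 weeks. The split was 179 higher and 2583 lower with equal totals, 384 and 478 with median-ratio scaling, and 364 and 533 with quantile normalization. Of the genes named above, those of the matrix and macrophage groups were mostly between saline and 2 weeks. Spp1 had 42.0, 38.9 and 37.9 FPKM in saline, 1179.7, 1319 and 1221 FPKM at 2 weeks and 237 and 316 FPKM at 4 weeks (4 against 2 weeks -2.17, limma adjusted p = 0.0034). C1qb had 276, 238 and 181 FPKM at 2 weeks, so that at 4 weeks it was lower (-1.59, limma adjusted p = 0.00702) but had not returned to saline. Tnc had 105, 109 and 127 FPKM at 2 weeks (-1.80, limma adjusted p = 0.00386), and Timp1 359, 420.0 and 419.9 FPKM (-1.79, limma adjusted p = 0.00399). Every 4-week value of these genes lay between the 2-week and the saline values. Of 27 matrix genes, 15 were lower at 4 than at 2 weeks and 1 higher, and of 24 macrophage markers 15 were lower and 1 higher, where the background was 7.13% lower.

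Other genes were not shown to differ between the times. Col28a1 had 17.3, 19.2 and 18.1 FPKM at 2 weeks (4 against 2 weeks 0.04, limma adjusted p = 0.903), Ctsk 99.5, 114 and 97.1 FPKM (-0.20, limma adjusted p = 0.401), and Eln 637, 528 and 649.7 FPKM (-0.66, limma adjusted p = 0.0862). Mdk had 37.2, 41.1 and 44.5 FPKM at 2 weeks and was no lower at 4 weeks (0.38, limma adjusted p = 0.152). Krt5 had 1.17, 3.95 and 1.45 FPKM at 2 weeks (0.94, limma adjusted p = 0.145), Phlda3 77.4, 77.5 and 81.4 FPKM (-0.21, limma adjusted p = 0.305) and Vsig2 5.71, 5.94 and 6.45 FPKM (0.09, limma adjusted p = 0.661). The 4-week and 2-week libraries did not overlap in Eln and Phlda3, whose 4-week values lay below those at 2 weeks, or in Mdk, whose 4-week values lay above them, and the fits do not show that any of these genes was equal at both times. Itgav, Cxcl1 and Il6 were higher at 4 than at 2 weeks. Itgav had 2.72, 2.56 and 1.90 FPKM at 2 weeks (1.13, limma adjusted p = 0.0143), Cxcl1 121, 98.3 and 124 FPKM (0.68, limma adjusted p = 0.0403) and Il6 63.2, 64.9 and 73.7 FPKM (0.64, limma adjusted p = 0.0393).

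Of the lower genes, Bex2, Cst8 and Acoxl were lowest at 2 weeks. Bex2 had 2.03, 3.90 and 3.05 FPKM at 2 weeks (1.37, limma adjusted p = 0.0159), Cst8 0.381, 0.657 and 0.433 FPKM (1.22, limma adjusted p = 0.00533) and Acoxl 4.03, 4.54 and 3.76 FPKM (1.31, limma adjusted p = 0.0097), so that the 4-week values lay between 2 weeks and saline. Orai3 and Mmp9 differed in the other way, with 2-week values near saline. Orai3 had 14.9, 18.4 and 16.8 FPKM at 2 weeks (-1.51, limma adjusted p = 0.00399) and Mmp9 4.69, 5.41 and 3.78 FPKM (-1.51, limma adjusted p = 0.00533). Between the times, Cst8 passed the filter of 1 FPKM only through the 4-week pair, and Mmp9 only through the 2-week libraries. Larp4b at 2 weeks was uneven, with 2.68, 15.1 and 13.9 FPKM, and no difference between the times was shown (-0.84, limma adjusted p = 0.352).

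**Figure D4:**
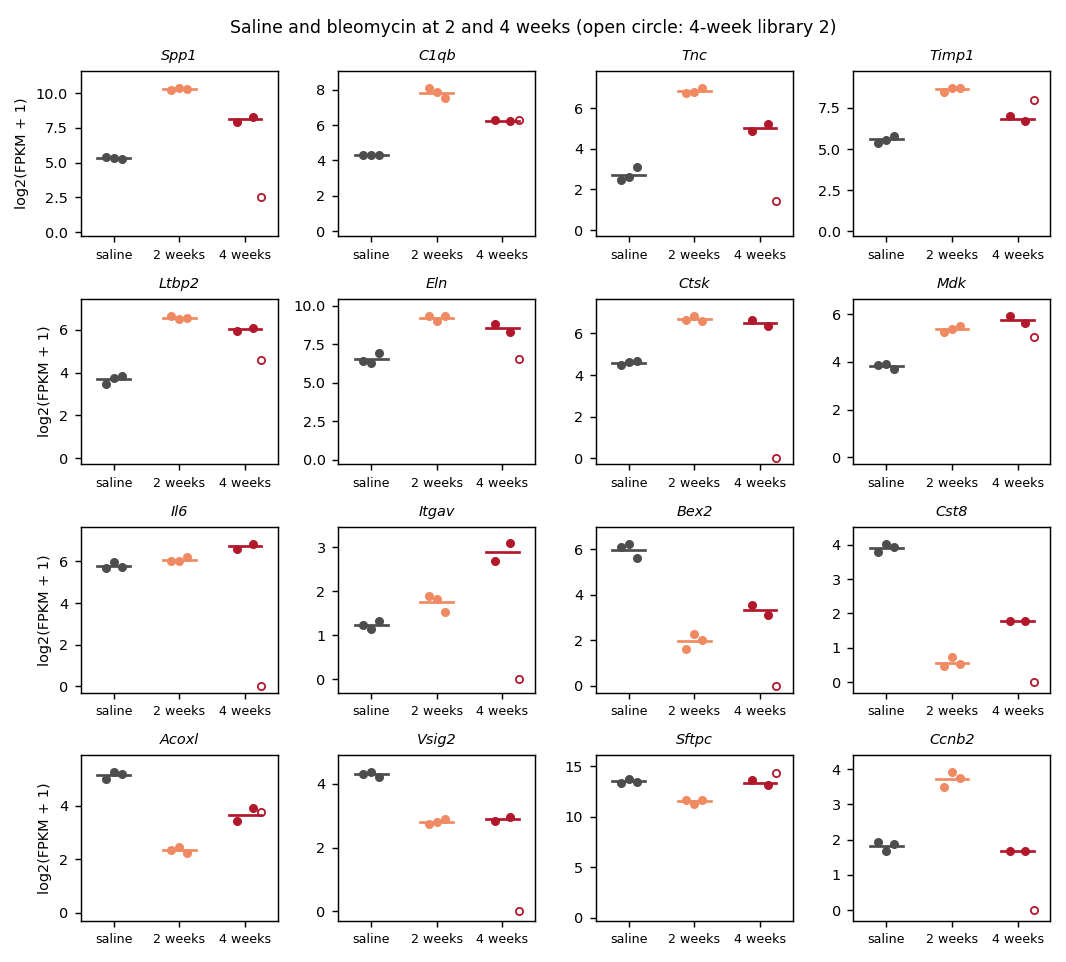
Level on the log2(FPKM + 1) scale (y axis) of 16 genes in saline, at 2 weeks and at 4 weeks of bleomycin (x axis); filled dots are libraries, bars are means of the filled dots, and open circles are 4-week library 2, outside the mean. Spp1, C1qb, Tnc and Timp1 stand between saline and 2 weeks at 4 weeks, Ctsk is near its 2-week level, Il6 and Itgav are highest at 4 weeks, and Sftpc and Ccnb2 are near saline.

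The 6 largest differences between the times in each direction, among called, non-overlapping genes whose higher group averaged at least 10 FPKM, are given next. On the higher side stood epithelial secretory genes. Sftpc had 3257, 2427 and 3294 FPKM at 2 weeks (4 against 2 weeks 1.86, limma adjusted p = 0.0112), Sfta2, a surfactant-associated protein gene, 13.6, 25.2 and 20.8 FPKM (1.87, limma adjusted p = 0.0147), and Scgb1a1 6448, 3386 and 5028 FPKM (1.89, limma adjusted p = 0.0256). Sfta2 had 97.1 and 55.0 FPKM at 4 weeks and 79.2, 93.9 and 81.6 FPKM in saline, so the 4-week and saline libraries overlapped. S100g, the calcium-binding protein calbindin-D9k, had 32.9, 59.5 and 53.7 FPKM at 2 weeks, 266 and 177 FPKM at 4 weeks and 184, 248 and 194 FPKM in saline (2.18, limma adjusted p = 0.00825). Cox6a2, a subunit of cytochrome c oxidase (2.01, limma adjusted p = 0.00702), and the secretoglobin Scgb1c1 (1.99, limma adjusted p = 0.0097) behaved alike, with 2-week values of 4.60, 7.54 and 5.71 FPKM for Cox6a2 and 2.68, 6.21 and 3.47 FPKM for Scgb1c1, and 4-week values of 33.8 and 20.8 FPKM for Cox6a2 and 19.5 and 17.5 FPKM for Scgb1c1. Of 20 AT2 markers 10 were higher at 4 than at 2 weeks, and none lower, where the background was 1.97% higher. Quantile normalization, which equalises the topmost genes, ended the calls of Sftpc and Scgb1a1, and median-ratio scaling that of Scgb1a1.

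On the lower side stood proliferation, matricellular and macrophage genes. Ccnb2, a mitotic cyclin, had 2.83, 2.19 and 2.67 FPKM in saline, 10.2, 14.2 and 12.4 FPKM at 2 weeks and 2.20 and 2.17 FPKM at 4 weeks (4 against 2 weeks -2.05, limma adjusted p = 0.00277). Of 25 cell cycle genes on the list, 14 were tested against saline, and none passed (median -0.22). These 14 were also tested between the times, and 12 were lower at 4 than at 2 weeks, where the background was 7.13% lower. Members under 1 FPKM in a 4-week library needed the 2-week libraries, where they were high, to be tested between the times. How many of the 12 did so was not counted, so their share is not comparable with the background. Against saline, 2 of the 14 passed the filter only through the group where they were high. Arg1, the arginase of alternatively activated macrophages, had 2.09, 2.49 and 1.98 FPKM in saline, 9.25, 18.8 and 10.1 FPKM at 2 weeks and 1.13 and 1.97 FPKM at 4 weeks (-2.38, limma adjusted p = 0.00756), and Fscn1, an actin-bundling protein, had 5.95, 3.07 and 3.05 FPKM, 28.1, 25.8 and 25.9 FPKM and 5.39 and 4.69 FPKM in the same order (-2.19, limma adjusted p = 0.00112). These 3 genes had 4-week values near saline. Thbs4, a matricellular thrombospondin, and Fst, the activin antagonist follistatin, had not returned. In the fit against saline, Thbs4 passed the filter of 1 FPKM only through the 4-week pair, where it was high. Thbs4 had 0.158, 0.317 and 0.259 FPKM in saline, 37.3, 42.2 and 35.9 FPKM at 2 weeks and 6.04 and 5.48 FPKM at 4 weeks (4 against 2 weeks -2.54, limma adjusted p = 0.000897; 4 weeks against saline 2.44, adjusted p = 0.00298), and Fst had 1.82, 2.34 and 2.23 FPKM, 32.9, 51.5 and 44.5 FPKM and 10.2 and 7.27 FPKM (-2.17, limma adjusted p = 0.00445; against saline 1.62, adjusted p = 0.0126).

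Library 2 of the 4-week group gave the following for the genes above. It listed 57 of the 125 higher genes and 48 of the 81 lower genes at 0, near the 45.3% of all genes for the higher set and above it for the lower set. It was above every saline library in 27 of the 125 higher genes (21.6%), where the share of all genes tested was 14.9%. In 94 of the 125 (75.2%) it was below every saline library, against 81.5% of all genes tested. It was below every saline library in 74 of the 81 lower genes (91.4%), but also in 81.5% of all 12606 genes tested. C1qb had 77.5 FPKM in it and C1qa 90.7 FPKM, close to the fitted 4-week libraries, whereas C1qc had 2.10 FPKM, below saline. Timp1 had 252 FPKM and Mdk 32.0 FPKM, both above saline, and Ltbp2 had 22.6 FPKM. Spp1 had 4.75 FPKM and Tnc 1.67 FPKM, below saline. Ctsk, Col28a1, Rgs16, Il6 and Retnla were listed at 0. Among the lower genes Acoxl had 12.7 FPKM, as in the fitted pair, but Mapt had 23.6 FPKM and Larp4b 37.3 FPKM, above saline. Since genes common to epithelium, such as Epcam, are also at 0 there, a listed 0 in this library was not read as absence.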

How the data were processed

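RNA of bead-isolated lung epithelial cells was sequenced, per the labels, on an Illumina instrument. The submitters' processing notes name HISAT2, StringTie and mm10; settings and the handling of multi-mapped reads were not stated. Per gene and library, the authors deposited FPKM, with group means on a log2 scale, a log2 fold change, a linear fold change, a p-value and a q-value for each comparison. Each table keeps genes whose higher group mean reaches 0.5 FPKM, and saline values are identical in all tables.

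From the deposited FPKM, log2(FPKM + 1) was fitted with limma 3.58.1 in R 4.3.3 (empirical Bayes with a trend, two-sided, Benjamini-Hochberg over all genes tested, threshold 0.05) for genes of at least 1 FPKM in at least 2 libraries of the fit. A fold change on this scale understates the change of low genes. The 4-week fits used library 1 and the unnumbered library and left library 2 apart. The procedure was tested on simulated data. Gene lists (35) and comparisons were chosen with earlier results of these data known. Genes named were the 12 largest called folds in each direction among non-overlapping genes whose higher group averaged at least 10 FPKM, up to 4 members of each list by adjusted p, fixed epithelial, leukocyte and stromal genes, and the 6 largest folds in each direction between 4 and 2 weeks; others are said to be named after their values were seen. Not every list member named by that rule is printed. A called member of a list is not reported here. Alternatives were another pseudocount (0.1), other filters (none, 5 FPKM), 3 scalings, no trend, a joint fit of 11 libraries, leaving out each library, adding library 2, and a replicate block. Promoter windows came from RefSeq. Depth is unknown, so FPKM has no counting interval.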

Additional observations from a re-analysis of the deposited data

Results flagged for a closer look

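The effect against saline differed between 4 and 2 weeks, by the limma test of 4 against 2 weeks (adjusted p under 0.05), in 47 of the genes named. The values that follow are log2 fold changes of 4 against 2 weeks. Of the genes higher than saline at 4 weeks, these were lower than at 2 weeks: Spp1 (-2.17), Thbs4 (-2.54), Ltbp2 (-0.56), Mmp12 (-1.12), Tnc (-1.80), Rgs16 (-0.76), Grem1 (-1.36), C1qb (-1.59), Cilp (-1.07), C1qc (-1.64), C1qa (-1.62), Fst (-2.17), Trem2 (-1.44), Timp1 (-1.79), Fn1 (-1.12), Cthrc1 (-1.48), Thbs2 (-1.40) and Mmp14 (-0.73). Higher than at both saline and 2 weeks were Itgav (1.13), Cxcl1 (0.68) and Il6 (0.64). Of the genes lower than saline at 4 weeks, these were higher than at 2 weeks: Lyz1 (1.10), Igfbp3 (1.44), Acoxl (1.31), Bex4 (0.89), Cst8 (1.22) and Bex2 (1.37). Lower than at both were Dnaaf1 (-0.60), Orai3 (-1.51), Mmp9 (-1.51) and Tubb1 (-0.57). Between the times, Mmp9 and Tubb1 passed the filter of 1 FPKM only through the 2-week libraries, and Cst8 only through the 4-week pair, so a difference was needed for them to be tested. Among genes that did not pass against saline at 4 weeks, those higher than at 2 weeks were Cst3 (0.88), Scgb1a1 (1.89), Ager (0.86), S100g (2.18), Cox6a2 (2.01), Scgb1c1 (1.99), Sftpc (1.86), Sfta2 (1.87), Sftpb (1.21) and Slc34a2 (1.23), and those lower were Col1a1 (-0.97), Cd68 (-1.14), Fscn1 (-2.19), Ccnb2 (-2.05), Arg1 (-2.38) and Csf3r (-1.12). Without 4-week library 1 the number of genes called between the times was 138 in place of 1155, so these differences rest in part on that library.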

How the results depend on the processing

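The genes named for 4 weeks against saline kept their direction under the other pseudocount, the filters, the missing trend and the joint fit of 11 libraries. Scaling and leaving out libraries turned Ager and Foxj1, both uncalled: Ager -0.014 with quantile normalization, Foxj1 0.075 with median-ratio scaling. Leaving out 1 library at a time gave -0.17 to 0.36 for Ager, -0.24 to 0.14 for Foxj1 and -0.42 to 0.12 for Sftpc. Counts at 4 weeks against saline were 206, and 150 to 228 under the scalings, filters, pseudocount, trend and joint fit, 3 to 827 when 1 library was left out, and 0 with library 2 added (smallest adjusted p 0.542). A replicate block is possible with library 2 in the fit, and the blocked count was also 0. The unnumbered library has no partner of the same number, nor has library 3 of saline or of 2 weeks. The blocked 4-week contrasts therefore rest on libraries 1 and 2 of each group alone. At 4 against 2 weeks the count of 1155 was 2762 with equal totals, 862 with median-ratio scaling, 897 with quantile normalization, 636 in the joint fit, 138 to 2443 with 1 library left out, and 0 with library 2, with or without the replicate block. At 2 weeks against saline the count of 3872 was 1780 in the joint fit, 2477 to 3608 with 1 library left out and 3369 with the replicate block. Shared numbers are not stated to mark shared mice.

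With library 2 in the fit against saline these log2 fold changes changed sign: Ctsk -0.25, Cxcl1 -0.64, Il6 -1.31, Retnla -1.19, Ccl7 -0.97, Ccl2 -0.16, Lum -0.75, Col3a1 -0.92, Fn1 -0.59, Sftpc 0.19, Cd68 -0.024, Ager -0.38 and Aspn -0.22. With the replicate block as well they were Spp1 -0.16, Rgs16 -0.63, Ctsk -1.24, Aqp3 -0.024, Bax -0.19, Cxcl1 -1.60, Il6 -2.51, Retnla -2.42, Ccl7 -1.99, Ccl2 -0.72, Lum -1.70, Cthrc1 -0.43, Col3a1 -1.84, Fn1 -1.49, Sftpc 0.44, Cd68 -0.34, Ager -0.30, Lgals3 -0.048, Cilp -0.057, Thbs2 -0.078 and Aspn -0.72. At 4 against 2 weeks S100g was -0.41 with library 2, and with the block S100g -1.47 and Scgb1c1 -0.19. The many genes listed at 0 in library 2 enter these fits as 0. The blocked values rest only on libraries 1 and 2 of each group.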

Other observations

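Further genes were chosen after their values were seen and are given as values only. Among matrix and stromal genes outside the lists' named members, Mmp2, gelatinase A, had 273 and 308 FPKM at 4 weeks, against 83.8, 103 and 115 FPKM in saline (log2 fold change 1.53, limma adjusted p = 0.0136). Grem1, the BMP antagonist gremlin 1, had 3.99 and 4.20 FPKM at 4 weeks, against 0.319, 0.497 and 0.116 FPKM in saline (log2 fold change 1.97, limma adjusted p = 0.00614), and Cilp, a matrix protein of cartilage and of activated fibroblasts, had 20.1 and 18.1 FPKM at 4 weeks, against 3.16, 4.48 and 6.41 FPKM in saline (log2 fold change 1.86, limma adjusted p = 0.023). Mmp14, a membrane-bound collagenase, had 60.9 and 58.9 FPKM at 4 weeks, against 28.6, 31.0 and 33.9 FPKM in saline (log2 fold change 0.93, limma adjusted p = 0.0234). These values were above all saline libraries. Grem1 passed the filter of 1 FPKM only through the 4-week pair, where it was high. Thbs2, a matricellular thrombospondin, had 5.29 and 5.14 FPKM at 4 weeks, against 2.21, 2.34 and 2.19 FPKM in saline (log2 fold change 0.94, limma adjusted p = 0.0186), and Aspn, the proteoglycan asporin, had 50.7 and 40.5 FPKM at 4 weeks, against 22.9, 22.7 and 22.9 FPKM in saline (log2 fold change 0.96, limma adjusted p = 0.0264).

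Among platelet genes, Tubb1, the platelet beta-tubulin, had 0.383 and 0.723 FPKM at 4 weeks, against 7.11, 3.69 and 4.57 FPKM in saline (log2 fold change -1.95, limma adjusted p = 0.0205), and Gp5, the platelet glycoprotein V, had 0.314 and 0.476 FPKM at 4 weeks, against 2.14, 1.76 and 1.54 FPKM in saline (log2 fold change -1.01, limma adjusted p = 0.0276). Gp1bb, a platelet glycoprotein of the marker list, went the other way without passing, with 3.84 and 3.90 FPKM at 4 weeks, against 2.97, 1.14 and 2.11 FPKM in saline (log2 fold change 0.71, limma adjusted p = 0.184). Tubb1 and Gp5 passed the filter of 1 FPKM only through the saline libraries, where they were high. The summed level of the 9 platelet and red cell markers was 69.9 and 130 FPKM at 4 weeks, against 327, 106 and 151 FPKM in saline, and the groups overlapped. Genes of the motile axoneme were among the lower calls too. Drc1, a subunit of the dynein regulatory complex, had 7.79 and 7.84 FPKM at 4 weeks, against 14.3, 15.6 and 15.3 FPKM in saline (log2 fold change -0.86, limma adjusted p = 0.0234), and Dnaaf1, a dynein assembly factor, had 2.13 and 1.44 FPKM at 4 weeks, against 3.87, 4.23 and 4.20 FPKM in saline (log2 fold change -0.88, limma adjusted p = 0.0442). Thbs2, Mmp14, Aspn, Gp5, Drc1 and Dnaaf1 lost their calls in each of the 3 fits without 1 saline library. Cilp had a limma adjusted p of 0.0563 without saline library 2, and Tubb1 had 0.055 without saline library 3.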
